A study of Mus musculus with 3 samples.

Results

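Ser5-phosphorylated Pol_II peaks in the 3' flanks of genes are peaks that lie past the annotated end of a protein-coding gene. The peaks of the untreated and the LPS list were merged where they overlapped, which gave 69876 peaks on chromosomes 1 to 19 and X. A merged peak was a member when it overlapped no protein-coding gene of GENCODE M1 (mm9), lay more than 1 kb from every coding transcription start site (TSS) and had its midpoint within 10 kb past the 3' end of a coding gene. The rule was met by 8932 peaks (12.8% of all), which follow 4254 of 22350 coding genes (19.03%). Because the members were chosen from the peak calls, their Ser5 level and their LPS response are given as a description. At the 10 kb limit, the outermost member lay 9995 bases past Ndc80, with 117 untreated, 211 LPS and 17 input tags, and the nearest peak outside it lay 10009 bases past 9130014G24Rik, with 22, 3 and 1.

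Chromatin came from bone marrow-derived macrophages of female Fvb mice (Fvb/Hsd in the study's methods) on the 7th day of differentiation, grown in the presence of L929-conditioned medium, a source of macrophage growth factor. Cells were left untreated or given lipopolysaccharide (LPS, a bacterial cell wall component) at 10 ng/ml for 2 h. Chromatin of each condition was precipitated with ab5131, an antibody to the Ser5-phosphorylated C-terminal domain repeat of Pol_II, and untreated chromatin without antibody served as input. There was 1 library per condition, so no interval below holds the error between cultures, which is unknown, and no test was made. The labels name no genetic change and do not give the number or age of the mice.

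Pol_II does not stop at the site where a transcript is cleaved and polyadenylated. It runs on into the flank, slows down and is released further downstream. Ser5 phosphorylation of its C-terminal repeat is set when transcription starts and is most abundant near promoters. ChIP tags carry no strand of transcription, and a peak in a flank can belong to the gene it follows, to a converging gene, to a non-coding transcript or to a regulatory element.

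The libraries held 7616771 untreated, 6249819 LPS and 7533308 input tags on these chromosomes. All 8 macrophage markers (Csf1r, Emr1, Itgam, Cd14, Lyz2, Cd68, Fcgr3 and Sfpi1) had a density over their whole gene above 2 times the input in the untreated library, from 1.94 to 105 TPM per kb (TPM, tags per 1000000 tags of the library on these chromosomes). That held for 0 of 4 T cell, 0 of 4 B cell, 0 of 4 fibroblast, 1 of 4 erythroid and 1 of 4 granulocyte markers. In the library labelled LPS, genes known to respond were higher, from 6.19 times for Nfkbia to 396 times for Ccl5.

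Windows of 200 bases around the densest Ser5 stretch show what kind of DNA the members cover. The sequences are from the mm9 assembly and run 5' to 3' on the strand of the gene. Capitals mark matches to 5 short motifs searched on both strands: AATAAA, the poly(A) signal, TGANTCA, the AP-1 site, which reads the same on both strands, GGANTTTCC, an NF-kB site, GGAAGT, an Ets and PU.1 core, and GAAANNGAA, an interferon-response core. A match is a match of letters and not a bound site. Lyz2 is shown because its member held the most tags (chr10:116713105-116713304, minus strand), Gbp2 for the largest ratio of LPS to untreated (chr3:142301493-142301692, plus strand) and Enpp1 for the smallest (chr10:24355504-24355703, minus strand). Trem2 (chr17:48495279-48495478, plus strand) and Mcl1 (chr3:95470158-95470357, plus strand) each hold 2 matches to TGANTCA, and Pim1 (chr17:29633617-29633816, plus strand) and Tnfaip3 (chr10:18719275-18719474, minus strand) are LPS-raised members with no match, which says only that these letters are not in these windows.
Lyz2: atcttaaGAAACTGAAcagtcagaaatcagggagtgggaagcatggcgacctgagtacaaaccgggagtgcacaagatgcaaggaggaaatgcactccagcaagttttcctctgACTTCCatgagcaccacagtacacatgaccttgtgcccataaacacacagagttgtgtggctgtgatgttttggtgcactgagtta
Gbp2: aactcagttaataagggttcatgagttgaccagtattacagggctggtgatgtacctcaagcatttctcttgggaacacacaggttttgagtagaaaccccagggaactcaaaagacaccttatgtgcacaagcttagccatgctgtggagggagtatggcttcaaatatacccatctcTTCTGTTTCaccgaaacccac
Enpp1: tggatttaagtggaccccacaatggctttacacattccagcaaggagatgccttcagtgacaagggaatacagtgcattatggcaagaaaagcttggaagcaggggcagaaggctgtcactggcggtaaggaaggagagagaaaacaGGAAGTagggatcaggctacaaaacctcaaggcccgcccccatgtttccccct
Trem2: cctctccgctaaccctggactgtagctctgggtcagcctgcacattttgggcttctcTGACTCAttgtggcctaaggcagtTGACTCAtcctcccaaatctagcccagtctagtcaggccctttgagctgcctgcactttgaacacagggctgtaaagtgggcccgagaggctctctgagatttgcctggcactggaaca
Mcl1: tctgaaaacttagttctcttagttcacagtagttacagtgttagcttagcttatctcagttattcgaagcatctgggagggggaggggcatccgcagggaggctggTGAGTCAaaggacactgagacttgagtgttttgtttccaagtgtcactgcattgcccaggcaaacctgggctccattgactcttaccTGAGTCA
Pim1: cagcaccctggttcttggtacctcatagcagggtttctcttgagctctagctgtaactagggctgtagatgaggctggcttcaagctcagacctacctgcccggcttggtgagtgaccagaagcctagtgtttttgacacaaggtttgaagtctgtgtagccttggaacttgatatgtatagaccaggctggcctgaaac
Tnfaip3: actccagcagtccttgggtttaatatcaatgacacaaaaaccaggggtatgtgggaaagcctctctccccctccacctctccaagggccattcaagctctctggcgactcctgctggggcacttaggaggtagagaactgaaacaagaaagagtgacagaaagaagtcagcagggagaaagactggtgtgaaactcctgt

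Ser5 density was higher just past the ends of these genes than in their last 5 kb. Around genes with a member, counting only bases outside other coding genes and more than 1 kb from every coding TSS, the untreated density rose from 1.86 TPM per kb over the last 5 kb of the gene to 3.24 in the first kb past the end and 3.50 in the second. It then fell to 2.20 from 2 to 5 kb, 1.18 from 5 to 10 kb and 0.775 from 10 to 15 kb. After LPS the same stretches held 2.21, 3.61, 3.49, 2.08, 1.09 and 0.798. Input was nearly flat, between 0.558 and 0.682 in all 6 stretches. The peak calls chose these genes, so a rise within the flank is part of the rule.

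Coding genes without a member (13198 genes with at least 10 Ser5 tags) are those that were the nearest gene of no member. Their flank can still hold a member assigned to a nearer gene, since 2043 members lay past the ends of 2 or more genes. These genes without a member showed a smaller rise in the first kb. Their untreated density was 0.942 over the last 5 kb, 1.13 in the first kb past the end and 0.797 in the second, and after LPS it was 0.961, 1.30 and 0.761. From 5 kb on their Ser5 density lay below input, at 0.366 untreated and 0.292 after LPS against 0.434. The LPS to untreated ratio of these stretches below input was 0.799 (95% interval 0.791 to 0.807) from 5 to 10 kb. All ratios here are scaled to the tags on chromosomes 1 to 19 and X. Scaling to the tags outside peaks would raise every log2 ratio of LPS to untreated by 0.11.

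**Figure D1:**
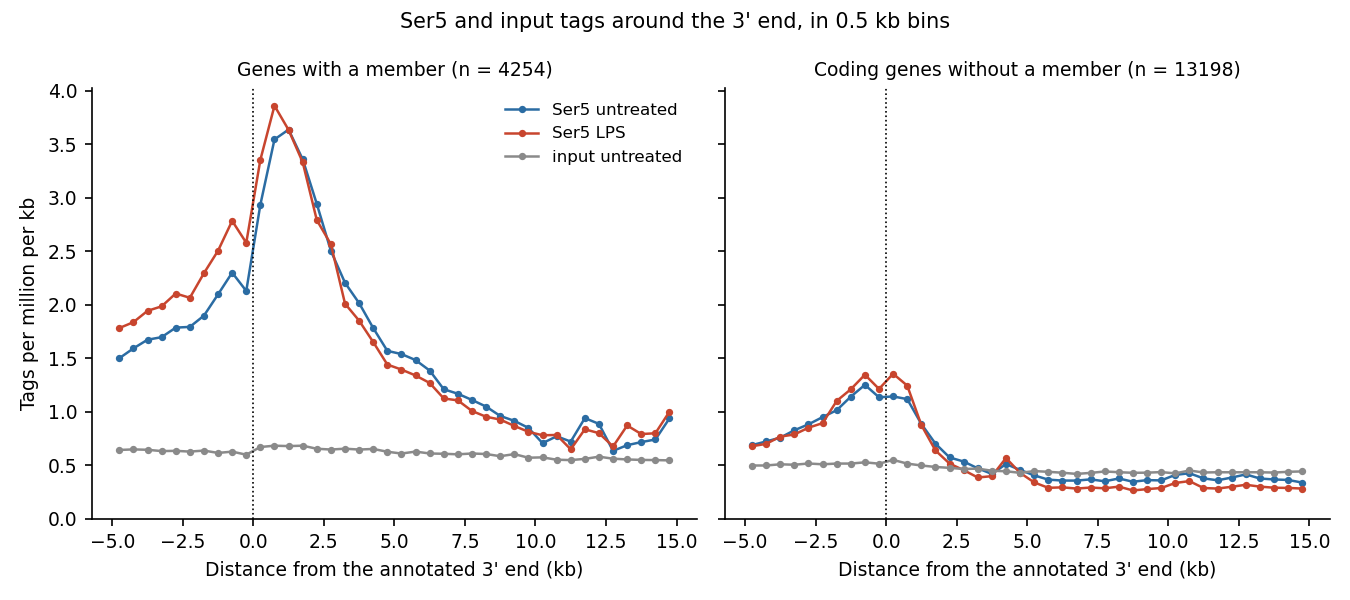
TPM per kb (y axis) in bins of 0.5 kb from 5 kb before to 15 kb past the annotated 3' end (x axis, dotted line at the end), summed over 4254 genes with a member and 13198 coding genes without one that had at least 10 Ser5 tags, for untreated Ser5 (blue), LPS Ser5 (red) and input (grey). In genes with a member both Ser5 lines are highest within 2 kb past the end and fall towards input by 10 kb, while genes without a member show a low rise around the end.

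Members were most frequent close to the gene. Their midpoints had a median distance of 2150 bases past the 3' end (95% interval 2103 to 2201), with quartiles at 1076 and 4000 bases. The first kb held 2054 members, the second 2136, the stretch from 2 to 5 kb 3178, or 1059 per kb, and that from 5 to 10 kb 1564, or 313 per kb. The median member was 375 bases wide and the widest 8593 bases. Distance made little difference to the median tags of a member, with 13 to 14 untreated and 8 to 10 LPS tags in the 4 classes of distance, against 1 to 2 input tags. Summed density rose with distance, from 5.62 TPM per kb untreated in the first kb to 8.58 from 5 to 10 kb. After LPS it rose from 4.82 to 8.40 and in input from 0.719 to 1.04. The LPS to untreated ratio of the sums was 0.857 (0.843 to 0.870) in the first kb and 0.980 (0.967 to 0.992) from 5 to 10 kb.

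**Figure D2:**
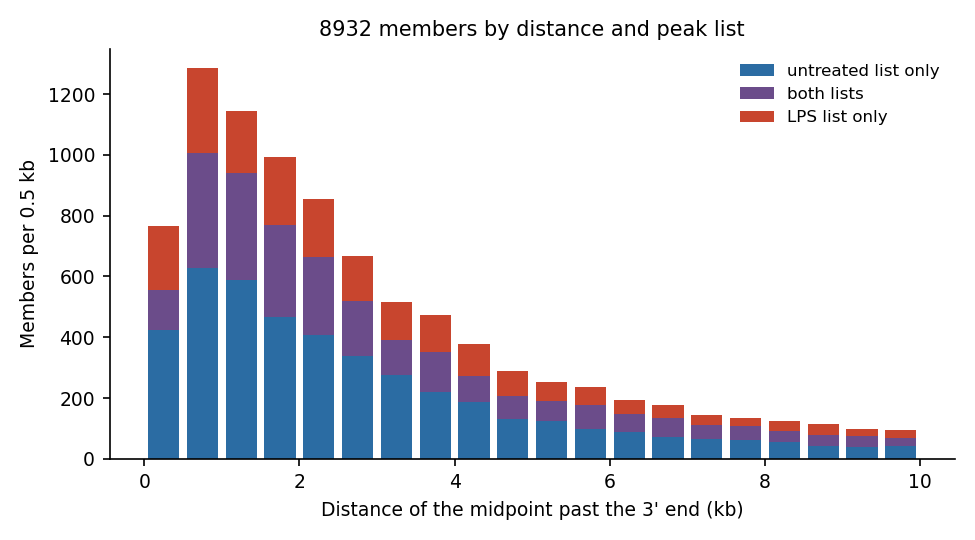
Number of members per 0.5 kb (y axis) by the distance of their midpoint past the 3' end (x axis, kb), stacked by whether the peak was called in the untreated library only (blue), in both (purple) or in the LPS library only (red). Members are most frequent within 2 kb of the end, and 1564 of 8932 lie beyond 5 kb.

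Most genes with a member had few of them: 2099 genes (49.3%) had 1, 349 had 5 or more, and the largest number was 13. Members were found past genes that carried Ser5 themselves. Of the genes ranked by untreated density in 5 groups of equal size, 2.56% (2.08 to 3.14) of the lowest group had a member, followed by 10.1%, 28.5% and 41.2%, and 38.1% (36.5 to 39.7) in the highest group, whose genes are also the shortest, with a median of 7.14 kb. Of the genes at least 2 times higher after LPS 37.5% (34.6 to 40.5) had a member, of those at least 2 times lower 24.7% (22.8 to 26.6), and of those in between 23.1% (22.4 to 23.8).

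The surroundings of the members were mixed. Of the 8932 members, 2043 (22.9%) lay within 10 kb past the 3' ends of 2 or more coding genes, and 3929 (43.99%) had a coding TSS within 10 kb. A non-coding gene was overlapped by 477 members (5.34%), among them 231 over lincRNA, 51 over pseudogene and 9 over miRNA annotations. The next coding gene past the member ran on the same strand for 5349 members and on the opposite strand, towards the member, for 3581. For the response this made little difference: the median log2 ratio of LPS to untreated was -0.50 (-0.54 to -0.45) for the former and -0.42 (-0.48 to -0.37) for the latter.

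By short motifs the members were closer to peaks inside genes than to the other peaks outside genes. GC content had a median of 50.0% in the members' windows, 50.5% in gene bodies, 51% in the 6101 other peaks outside genes and over 1 kb from a TSS, and 62.0% within 1 kb of a TSS. The Ets and PU.1 core GGAAGT was found in 17.0% of member windows (16.2 to 17.8), 18.0% of gene body windows, 31.7% of the other windows outside genes (30.5 to 32.8) and 19.9% of all windows. PU.1 is the factor that sets up macrophage enhancers. The AP-1 letters TGANTCA were found in 7.92% of member windows (7.37 to 8.49), 8.33% of gene bodies, 13.4% of the other windows outside genes (12.6 to 14.3) and 7.80% of all windows.

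GGANTTTCC was in 0.717% of member windows (0.562 to 0.914) and 0.869% of all windows. GAAANNGAA was in 5.36% of member windows and 5.47% of all, and within the members in 7.31% (6.15 to 8.67) of those at least 2 times higher after LPS, 5.15% (4.41 to 6.02) of those at least 2 times lower and 4.48% (3.85 to 5.22) of those in between. AATAAA was in 10.7% of member windows (10.05 to 11.3) and 9.02% of all (8.81 to 9.23). Gene body windows, with 10.1% (9.85 to 10.4), were close to the members. The other windows outside genes had 9.79% (9.07 to 10.6) and windows within 1 kb of a TSS 4.69%. At the gene end itself, AATAAA or ATTAAA stood in the last 40 bases of 75.3% of genes with a member (74.0 to 76.6), 70.6% of genes without a member that had at least 10 Ser5 tags (69.8 to 71.4) and 40.4% of those with fewer tags.

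Between conditions the members lost Ser5 more often than they gained it. At least 10 tags over both Ser5 libraries were present in 8054 members, and 878 had fewer. Of the 8054, 1641 were at least 2 times higher after LPS (20.4%, 19.5 to 21.3) and 2911 at least 2 times lower (36.1%, 35.1 to 37.2), against 28.0% higher and 27.8% lower among all 64477 merged peaks with as many tags. The interval of the ratio also excluded 1 for 1210 of the higher and 2025 of the lower members. Their median log2 ratio was -0.46 (-0.51 to -0.43), against -0.13 for all merged peaks. The summed tags of all members fell less, from 241692 to 183305, a ratio of 0.924 (0.919 to 0.930) after scaling to the libraries.

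The list in which a peak had been called fixed its direction. Of the members, 4357 were called in the untreated library only, 2492 in both and 2083 in the LPS library only. None of the untreated-only members was 2 times higher and none of the LPS-only members 2 times lower, with median log2 ratios of -1.56 and 1.53. Members called in both lists had a median of -0.04 (-0.08 to -0.01), with 262 of 2492 higher and 245 lower. Width mattered in the same way, since the 823 members at least 1 kb wide had a median of -0.12 (-0.19 to -0.05) and the narrower ones of -0.52. The untreated library was also the deeper one.

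Peaks in other places moved differently. Of peaks inside coding genes and over 1 kb from a TSS, 37.6% were higher and 27.5% lower, and of peaks within 1 kb of a TSS 9.98% and 19.8%. Peaks 1 to 10 kb upstream of a gene, with 22.9% and 37.5%, and peaks over 10 kb from any coding gene, with 24.4% and 38.5%, came close to the members. Calling in both lists was least frequent in gene bodies (21.2%), followed by the members (27.9%, 26.98 to 28.84), and most frequent near a TSS (74.4%).

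**Figure D3:**
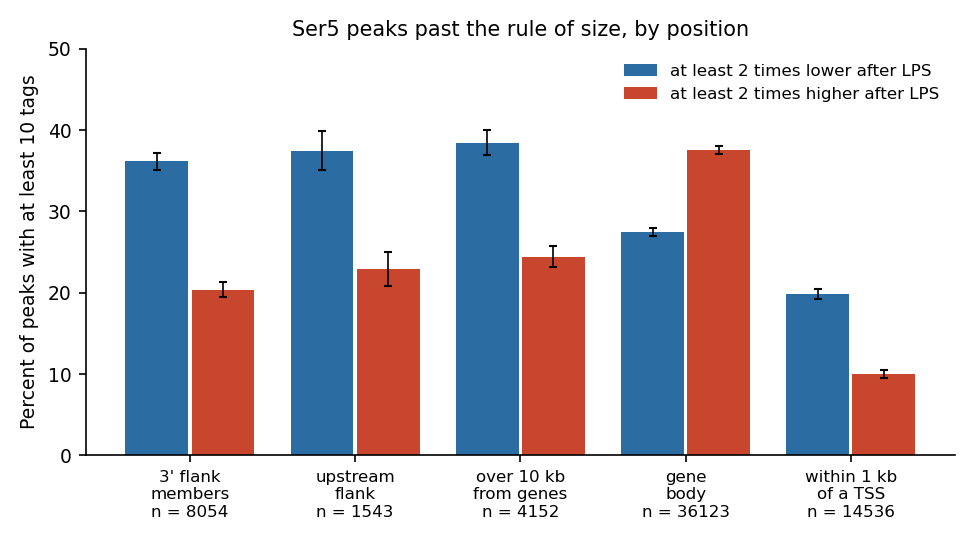
Percent of merged Ser5 peaks with at least 10 tags (y axis) that were at least 2 times lower (blue) or higher (red) after LPS, by position of the peak (x axis, with n). Bars carry 95% Wilson intervals, which take peaks as independent. The 3' flank members, at 36.1% lower and 20.4% higher, resemble the other peaks outside genes, and gene bodies have more higher than lower peaks.

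Flank and gene were then set side by side for the 3920 genes with at least 10 Ser5 tags in their members and in the gene. The members were denser than the gene they followed, with a median of 255% of the density over the whole gene in untreated cells (249 to 264) and 190% after LPS (182 to 197). They were denser than the gene in 84.4% of genes untreated and in 74.2% after LPS. In input the same regions held 120% of the genes' density, a value from tags and lengths summed over all these genes and not a median. A peak is dense by selection, so the whole flank was also counted, from the 3' end to 10 kb past it, stopping at the next coding gene or 1 kb before its TSS. For the 3813 genes with a member and a whole flank of at least 2 kb the flank held 90.1% (86.8 to 93.5) of the gene's density untreated and 73.1% (70.2 to 75.3) after LPS. For 6463 genes without a member the shares were 80.0% and 73.6%. In input the whole flanks held 92.2% of the genes' density with a member and 102% without, again summed and not medians.

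Flank and gene moved together, with the flank somewhat below the gene. The median log2 change of the members was -0.53 (-0.58 to -0.49) and that of their genes -0.11 (-0.14 to -0.09). Per gene, the log2 of the flank change over the gene change had a median of -0.38 (-0.42 to -0.35). This value is free of the scaling between libraries but not of a difference in their background. From 5 to 10 kb past genes without a member, where Ser5 lay below input, the ratio was 0.799. The part of background in the flank values was not tested. For the whole flank it was -0.27 (-0.29 to -0.25) in genes with a member and -0.15 (-0.17 to -0.12) in genes without, and for single members called in both lists, each set against its gene, it was -0.15 (-0.19 to -0.12). Across the 3920 genes the 2 changes had Pearson's r of 0.65 and Spearman's rho of 0.62, a description over points that share both libraries and their depth.

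Members mostly moved with genes that responded. By the same rule of size, 5.82% of 17386 coding genes were higher and 11.2% lower after LPS. Of the 365 compared genes that were at least 2 times higher, the members of 276 (75.6%) were higher too and those of 7 lower. Of the 448 genes at least 2 times lower, the members of 369 (82.4%) were lower and those of 11 higher. Of the 3107 genes in between, 321 (10.3%) had members 2 times higher and 1041 (33.5%) members 2 times lower. The members were chosen by their peak calls, and over the whole flanks of all coding genes, with no peak call, fewer flanks moved with the gene. Of 688 genes at least 2 times higher, the whole flank was higher in 363 (52.8%) and lower in 14, of 1095 genes at least 2 times lower it was lower in 616 (56.3%) and higher in 25, and of the 8493 in between it was higher in 487 (5.73%) and lower in 1581 (18.6%). In the 110 genes at least 4 times higher the members had a median log2 change of 2.77 (2.46 to 2.99) and the genes of 2.58, and in the 76 genes at least 4 times lower the medians were -3.05 (-3.39 to -2.44) and -2.49. The whole flanks of all coding genes changed less than the gene at both ends, with a median of 2.09 (1.85 to 2.34) beside 2.48 in 178 genes at least 4 times higher and of -1.79 (-2.13 to -1.53) beside -2.39 in 147 genes at least 4 times lower.

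**Figure D4:**
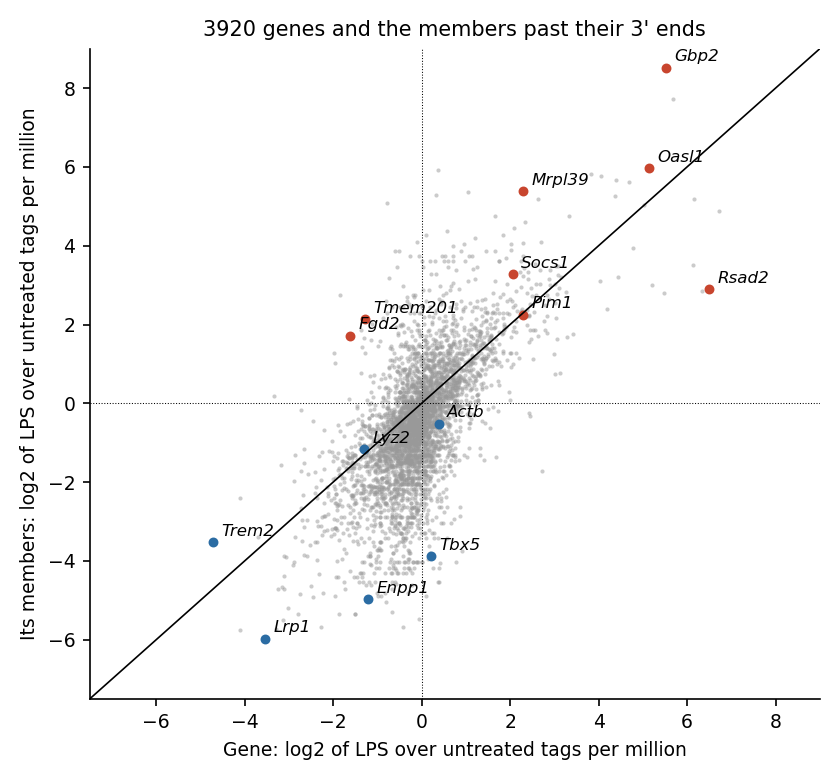
Log2 of LPS over untreated TPM for the members of a gene, summed (y axis), against the same for the gene (x axis), 1 point for each of 3920 genes, with the line of equal change; 0 tags were set to 0.5. Points run from Lrp1 and Trem2 at the lower left to Oasl1 and Gbp2 at the upper right, Mrpl39, Tmem201 and Fgd2 lie above the line, and Tbx5, Enpp1 and Rsad2 lie below it.

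Flanks that departed from their gene by 2 times or more were mostly lower. The flank change was at least 2 times above that of the gene in 362 genes (9.24%) and at least 2 times below it in 1076 (27.4%). Over whole flanks of all coding genes, which no peak call chose, the shares were 8.44% and 14.1%. With the whole flank in place of the peaks, genes with a member gave 2.75% and 10.9%. Among member peaks the departure from the gene went with the peak list. Single members set against their genes had a median log2 of -1.16 in the 3682 called untreated only. It was 0.88 in the 1833 called LPS only and -0.15 in the 2456 called in both lists.

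The shape of the profile differed with the response of the gene. Past the genes at least 2 times higher after LPS, the LPS to untreated ratio was 3.79 over the last 5 kb of the gene, 4.18 in the first kb past the end, 3.16 in the second, 2.89 from 2 to 5 kb and 2.30 from 5 to 10 kb. Past the genes at least 2 times lower, it was 0.298, 0.347, 0.299, 0.356 and 0.461 in the same stretches, and at 5 to 10 kb the LPS density of 0.623 TPM per kb was below the input's 0.669. Past the genes in between it was 0.967, 0.918, 0.867, 0.842 and 0.860.

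The member with the most tags followed Lyz2, which encodes the lysozyme of macrophages. It covered 1602 bases and lay 1592 bases past the gene (chr10:116711997-116713598), with 3315 untreated, 1225 LPS and 20 input tags. The density was 272 TPM per kb untreated and 122 after LPS, higher than the 105 and 42.6 over Lyz2 itself. Member and gene fell alike, to 0.450 (0.421 to 0.481) and 0.405 (0.381 to 0.431) of the untreated level. With 1 tag kept per position and strand the ratio of this crowded region was 0.660 and no longer past the rule of size. Lyz1, a close copy of Lyz2, lies in the same cluster, so tags of sequence common to both may be missing.

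Among other members with many tags, the one 4402 bases past Rbpj, the DNA-binding partner of Notch, spanned 8593 bases, the widest of all, with 1436 and 1096 Ser5 tags and a ratio of 0.930 (0.859 to 1.01). Past Mcl1, which encodes an anti-apoptotic Bcl2 family protein, 803 and 687 tags gave a ratio of 1.04 (0.940 to 1.16). Past Ikbke, the gene of an I-kB kinase-related kinase, tags went from 595 to 1082, a ratio of 2.22 (2.00 to 2.45) beside 2.57 (2.44 to 2.71) for the gene.

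Some of the strongest members lay over or near other annotated features. The member 3540 bases past Pecr held 883 and 891 Ser5 tags while Pecr itself held 108 and 40, and it overlapped a lincRNA (D230017M19Rik) and an snRNA, with 876 of its tags in 1 stretch of 200 bases. The member 8206 bases past Zswim4 held 2116 and 1469 tags, with 49 in input, and had a ratio of 0.846 (0.791 to 0.905). Its density was 61.6 and 52.2 TPM per kb where the gene had 4.84 and 2.48. No gene was annotated under it, and the nearest coding TSS, that of Nanos3, was 23667 bases away. Another member of this flank, 1818 bases past the end with 449 and 254 tags, overlapped the miRNA annotations Mir23a, Mir24-2 and Mir27a. Such members are in the flank by position, and which transcript their Pol_II belonged to was not tested.

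The 6 members with the largest ratios followed Gbp2, Gbp5, Oasl1 and Mrpl39. Past Gbp2, a guanylate-binding GTPase, the member 609 bases from the end had 0 untreated, 138 LPS and 2 input tags, at least 56.1-fold higher when 3 tags stand for the 0. Gbp2 itself went from 29 to 1091 tags. Past Gbp5, another of these GTPases, the 3 members went from 1 to 82, from 10 to 235 and from 0 to 14 tags, together 36.7 times (20.2 to 74.2), while the gene went from 37 to 2173. Past Oasl1, an oligoadenylate synthetase-like gene, tags went from 2 to 103, 62.8 times (16.9 to 525), with 86 and 2477 in the gene and a ratio of 14.2 (7.67 to 29.1) over the whole flank. At the strongest members of these 3 genes the untreated density, 0 to 0.793 TPM per kb, was close to that of input, 0.253 to 0.750.

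The 9 members past Mrpl39, a mitochondrial ribosomal protein gene, were called in the LPS list only and went from 19 to 650 tags together, 41.7 times (26.5 to 69.7). Mrpl39 itself rose 4.93 times (4.27 to 5.70), from 239 to 966 tags, and its whole flank 29.2 times (22.3 to 38.8). The 3 members from 2366 to 4049 bases past the end overlapped the lincRNA annotation of Mir155, the host of a microRNA known to be induced by LPS, and the member at 4049 bases also overlapped the miRNA itself. The remaining 6, from 5428 to 8743 bases, overlapped no annotated gene, and among them the outermost had 2 untreated and 121 LPS tags.

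The members with the smallest ratios followed genes whose tags fell as well. Past Enpp1, a phosphodiesterase gene, 64 untreated tags and 0 LPS tags made the member at least 17.5-fold lower, and the gene went from 265 to 94. Over Enpp1 itself the untreated density of 0.469 TPM per kb was already below the input's 0.506. Past Lrp1, an endocytic receptor of the LDL receptor family, 153 tags went to 2, a ratio of 0.0159 (0.00191 to 0.0585), and the gene from 4727 to 334, a ratio of 0.0861 (0.0768 to 0.0962). Past Cd300lb, an activating receptor of myeloid cells, 102 tags went to 2, a ratio of 0.0239 (0.00286 to 0.0886), with 1151 and 96 in the gene. Over the whole flank the ratios were 0.0958 (0.0467 to 0.177) for Enpp1, 0.0469 (0.0222 to 0.0876) for Lrp1 and 0.121 (0.0773 to 0.181) for Cd300lb, the last beside 0.102 (0.0817 to 0.125) for its gene. In these 3 members the LPS density was below that of input.

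The same held along whole runs of members past 3 further genes. The 7 members past Nfam1, an immunoreceptor-type activator of myeloid cells, were called in the untreated list only and went from 444 to 18 tags together, 0.0494 (0.0290 to 0.0790) of the untreated level beside 0.202 (0.169 to 0.240) for the gene. The 4 members past Kcnn4, a calcium-activated potassium channel gene, lay from 6066 to 9647 bases past its end and went from 329 to 9 tags, 0.0333 (0.0151 to 0.0641) beside 0.181 (0.155 to 0.212). The 4 past Myo1f, a class I myosin gene of leukocytes, went from 116 to 6 tags, 0.0630 (0.0227 to 0.141) beside 0.193 (0.172 to 0.216). In all 3 the members fell further than the gene. The whole flanks fell less than the members, to 0.0835 (0.0572 to 0.118), 0.127 (0.105 to 0.152) and 0.0969 (0.0519 to 0.167), each still below the ratio of its gene.

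**Figure D5:**
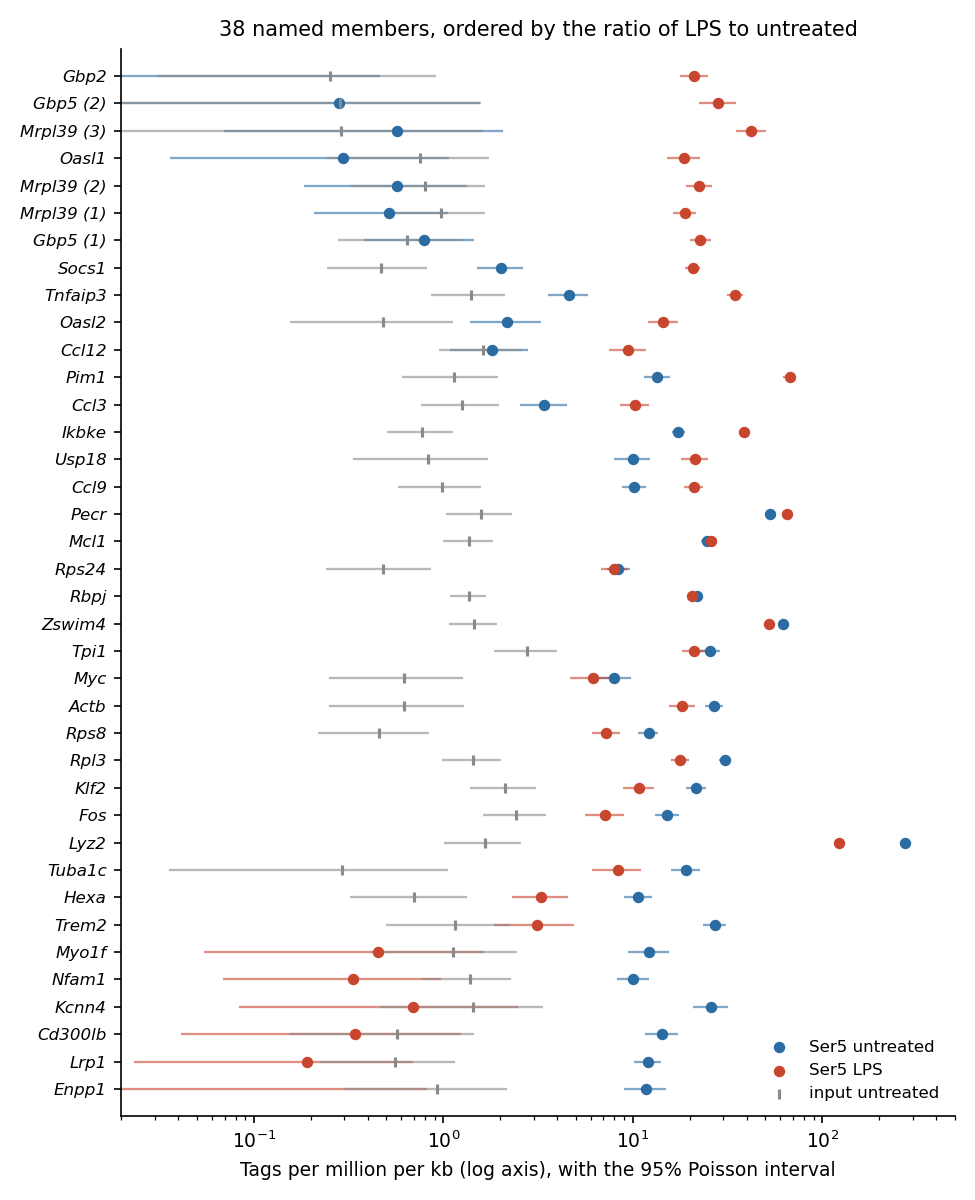
TPM per kb (x axis, log scale) of 38 named members (y axis, by the gene they follow, ordered by the ratio of LPS to untreated; numbers in brackets tell members of 1 gene apart) in untreated Ser5 (blue), LPS Ser5 (red) and input (grey), with 95% Poisson intervals cut at the left edge; a library with 0 tags has an interval and no point. Red lies right of blue from Gbp2 down to Ccl9, both are close from Pecr to Tpi1, and from Myo1f down to Enpp1 red lies at or below input.

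Lists of genes are set beside the 19.03% of all coding genes that had a member and the 20.4% higher and 36.1% lower of all members with at least 10 tags. The 19.03% includes genes with little Ser5. In the highest and next-highest of the 5 groups of genes by untreated density, 38.1% and 41.2% had a member. Cytokine and chemokine genes had members past 18 of 37 genes (48.6%). All 37 members had at least 10 tags, 31 were at least 2 times higher (83.8%) and 2 lower (5.41%), with a median log2 ratio of 2.40 against -0.46 over all members. The genes themselves were higher in 15 of 18 cases, and the median of flank change over gene change was -0.05. Past Ccl12 (MCP-5, a monocyte chemoattractant) tags went from 19 to 82, with 36 and 143 in the gene. Past Ccl9 tags went from 178 to 300, a ratio of 2.05 (1.70 to 2.49) below the 3.36 (3.05 to 3.71) of the gene. Past Ccl3 (MIP-1alpha) the outermost of 3 members went from 52 to 128, and the 3 together rose 3.24 times (2.50 to 4.23) while the gene rose 9.69 times (8.96 to 10.5). The whole Ccl3 flank, from 470 to 3880 tags, rose 10.06 times (9.14 to 11.1), much like the gene.

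NF-kB pathway and feedback genes had members past 27 of 40 genes (67.5%), 47 of 65 with enough tags being higher (72.3%) and 6 lower (9.23%), with a median of 1.91 and a median flank change over gene change of -0.17. Past Pim1, a serine/threonine kinase gene, the strongest of 3 members went from 156 to 639 tags, 4.99 times (4.18 to 5.99) beside 4.93 (4.47 to 5.45) for the gene. Past Tnfaip3, which encodes the ubiquitin-editing inhibitor A20, the strongest went from 70 to 434, 7.56 times (5.86 to 9.87) beside 8.33 (7.61 to 9.12). The densities of these members, 13.5 and 4.59 TPM per kb untreated, were close to those of the genes, 14.2 and 4.88. Past Socs1, a suppressor of cytokine signalling, the members rose 9.77 times (7.39 to 13.1) and the gene 4.17 times (3.48 to 5.03), with 4 coding genes whose ends lie within 10 kb of the strongest member.

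Interferon-stimulated genes had members past 23 of 43 gene entries (53.5%), and 44 of 57 members with enough tags were higher (77.2%) and 2 lower (3.51%), with a median of 2.46. Their flank change over gene change had a median of -0.70. Past Usp18, the protease that removes ISG15, tags went from 85 to 149, 2.14 times (1.63 to 2.82) beside 3.802 (3.49 to 4.15) for the gene, and with 1 tag per position the ratio was 1.95. Past Oasl2 there were 10 members in a row, up to 8615 bases from the end, which went from 82 to 440 tags together. The outer 5 overlapped a processed transcript annotation, Gm13822. Against the median of the list, the Oasl2 members rose more than the gene, 6.54 times (5.16 to 8.38) beside 3.42 (3.05 to 3.84). The nearest coding TSS to the strongest Oasl2 member was that of Oasl1, 6080 bases away. Oasl1 runs on the same strand and itself went from 86 to 2477 tags. Whether the rise of these members belonged to Oasl2 or to Oasl1 was not tested.

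Immediate early transcription factor genes had members past 18 of 31 genes (58.1%), of which 4 of 34 were higher (11.8%) and 13 lower (38.2%), with a median of -0.47, near that of all members, and a median flank change over gene change of -0.19. Past Klf2, a Kruppel-like factor gene, the strongest member went from 270 to 110 tags, a ratio of 0.497 (0.394 to 0.622) beside 0.659 (0.585 to 0.741) for the gene. Past Fos, the AP-1 subunit gene, the member 9402 bases from the end went from 184 to 71, a ratio of 0.470 beside 0.494. Both ratios were just past the rule of size and lay at 0.510 and 0.525 with 1 tag per position. Past Myc tags went from 91 to 58, with an interval of 0.549 to 1.09.

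Genes of resting macrophages and lysosomes had members past 26 of 48 genes (54.2%), with 46 of 72 lower (63.9%) and 16 higher (22.2%) and a median of -1.58. Their flank change over gene change had a median of -0.50. Lyz2 above is 1 of them. Past Trem2, a lipid-sensing receptor of macrophages, the strongest of 4 members went from 191 to 18 tags and the other 3, from 2751 to 4250 bases past the end, from 29 to 1, from 13 to 0 and from 34 to 0. Against that median, Trem2 itself fell further than its members, from 898 to 28 tags, a ratio of 0.0380 (0.0251 to 0.0553), beside 0.0867 (0.0514 to 0.138) for its members. Past Hexa, a subunit gene of lysosomal beta-hexosaminidase, tags went from 139 to 35 and in the gene from 1150 to 243.

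Cytoskeleton, translation and glycolysis genes, which cells use constantly, had members past 16 of 34 genes (47.1%), of which 2 of 29 were higher (6.90%) and 11 lower (37.9%, near the 36.1% of all members), with a median of -0.71. Past Actb (beta-actin) the 4 members fell from 415 to 238 tags, to 0.699 (0.593 to 0.822), while Actb itself went from 3498 to 3744, to 1.30 (1.25 to 1.37), a ratio of members over gene of 0.536 (0.452 to 0.634). These members hold a small share of the Actb flank, whose whole length went from 2385 to 2443 tags, 1.25 times (1.18 to 1.32), and over the gene 0.957 (0.889 to 1.03). Past Tuba1c, an alpha-tubulin gene, tags went from 131 to 47, a ratio of 0.437 beside 0.620 for the gene and 0.593 (0.485 to 0.724) for the whole flank. Past Tpi1, a glycolytic enzyme gene, the order was the other way round, with 0.826 (0.681 to 1.00) beside 0.632 (0.555 to 0.719). The Tpi1 member had 2 candidate genes and lay 2170 bases from the coding TSS of Spsb2. The whole flank of Tpi1 came to 0 bases and could not be set beside it.

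Ribosomal protein genes had members past 41 of 80 genes (51.3%), of which 2 of 109 were higher (1.83%) and 28 lower (25.7%), both below the shares of all members, with a median of -0.43. None of the 41 genes passed the rule of size, and 6 of their flanks were lower. Past Rpl3 the strongest member went from 712 to 339 tags, 0.580 (0.508 to 0.661) beside 0.928 (0.850 to 1.01) for the gene. Past Rps24 tags went from 195 to 152, 0.95 (0.763 to 1.18) beside 0.983.

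Replication-dependent histone genes, whose transcripts end at a stem-loop without a poly(A) tail, had members past 9 of 67 genes (13.4%, against 19.03% of all coding genes), of which 1 of 9 with enough tags was higher and 3 lower. The rule leaves out peaks within 1 kb of a coding TSS, which takes up part of the flank of a gene as short as Hist2h2aa2 (578 bases). What the rule or the transcript ending had to do with this share was not tested. Past Hist2h2be tags went from 99 to 26 and in the gene from 401 to 90. Past Hist2h2aa2 the member held 793 and 377 tags and the gene 4 and 0, but the gene has near-identical copies that share its sequence, and the member overlapped the pseudogene annotation of Hist2h3c2, so this flank and gene cannot be compared.

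The largest upward departures of members from their gene were found at Tmem201, Fgd2, Mrpl39 and Fignl1. Past Tmem201, an inner nuclear membrane protein gene, members went from 23 to 83 tags while the gene went from 203 to 69, a flank over gene ratio of 10.5 (6.04 to 18.97). Past Fgd2, a Cdc42 exchange factor gene of myeloid cells, members went from 33 to 89 and the gene from 493 to 132, a ratio of 10.0 (6.34 to 16.2). Past Fignl1, a DNA repair ATPase gene, members went from 39 to 207 and the gene from 311 to 204, a ratio of 8.07 (5.44 to 12.2). In these 3 cases the members were past the rule of size upwards, with Tmem201 and Fgd2 themselves past it downwards and Fignl1 at 0.799 (0.667 to 0.957). The whole flanks moved less, 1.99 times (1.43 to 2.77) for Tmem201, 1.29 times (1.04 to 1.62) for Fgd2 and 4.30 times (3.34 to 5.58) for Fignl1, which left 4.77, 3.96 and 5.36 over the gene. The nearest coding TSS to the strongest Tmem201 member was that of Pik3cd, 6301 bases away.

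At the other end stood Tbx5, Enpp1, Rsad2 and Il12b. Rsad2 (viperin, an antiviral protein) went from 205 to 15243 tags, 90.6 times, and its only member, 3091 bases past the end, from 7 to 43, 7.49 times (3.34 to 19.7). Il12b, the p40 subunit gene of interleukin-12, went from 11 to 728 tags and its 2 members from 8 to 47. These members rose less than the gene. The whole Rsad2 flank rose 45.8 times (35.2 to 60.7), from 57 to 2142 tags, and that of Il12b 5.46 times (3.58 to 8.63), from 27 to 121. The Tbx5 member fell from 72 to 4 tags past a gene of 41 and 39 tags, whose density of 0.107 TPM per kb untreated put it in the lowest of the 5 groups of genes, and the whole flank went from 93 to 9.

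Members did not reach farther past the end after LPS. In the 1939 genes with members in both lists, the outermost member of the untreated list had a median distance of 2905 bases and that of the LPS list 2550 bases. It lay farther out in the untreated list in 533 genes and farther out in the LPS list in 304. The untreated library was deeper and called more members, and its part in this difference was not tested.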

How the data were processed

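Per the study's methods, the authors shortened the Ser5 reads, kept those that Bowtie placed once in mm9 (no more than 2 mismatches) and ran MACS on each library with input as control, at a p-value of 1e-05. Versions were not given in the sources used here. The deposited files hold aligned tags of 45 (untreated), 30 (LPS) and 36 (input) bases, whereas the methods give the Ser5 lengths the other way round, and peaks with a score made from the MACS p-value on a log10 scale. The first 30 bases of 98.8% of untreated tags occur once in mm9.

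Tags were counted by their 5' end, duplicates kept, and scaled to tags per 1000000 tags (TPM) on chromosomes 1 to 19 and X. Members were assigned to the nearest coding gene ending upstream of them on its strand. With 1 library per condition no test was run. A region was called higher or lower at 2 times or more, given 10 tags or more in the Ser5 libraries together, 0 tags being set to 0.5 (a floor of 3 tags for printed bounds). Intervals are 95%. Those of levels (exact Poisson) and of ratios (exact conditional binomial) cover counting error only. Those of shares (Wilson) and of medians (order statistics) rest on the number of peaks or genes. They take these as independent, although 1 gene can have several members.

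Members and gene lists were chosen with earlier results of these data known. Named were the 6 members with most tags, the 6 of highest and the 6 of lowest ratio at 50 tags or more, the 4 genes of highest and the 4 of lowest flank over gene change at 50 tags or more in each, up to 3 members per list of 8 lists, and the peaks nearest inside and outside the 10 kb limit. Alternatives were duplicate removal, tags moved by 75 bases, scaling to tags outside peaks, a peak score of 100, a 5 kb flank, no gene of any biotype, tags unique over 30 bases, merging within 1 kb, 20 tags, input subtraction, genes from 1 kb past the TSS, members with 1 candidate gene and the whole flank. Python 3.11.15, numpy 2.4.6, pandas 2.3.3, scipy 1.17.1, numba 0.67.0 and matplotlib 3.10.9 were used, and the calculations were tested on simulated data.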

Additional observations from a re-analysis of the deposited data

How the results depend on the processing

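The number of members was 3686 with a peak score of at least 100 and 3656 with peaks merged within 1 kb. Members at least 2 times higher then numbered 748 and 501, and 917 with at least 20 tags, and members at least 2 times lower 1289, 1283 and 1497. As shares of the members with enough tags, merging gave 15.2% higher and 39.0% lower, and scaling to the tags outside peaks 21.9% and 33.6%. The median flank density was 242% of the gene's untreated and 180% after LPS with a 5 kb flank, 320% and 245% with input subtracted, 379% and 281% with the gene counted from 1 kb past its TSS, and 94.0% and 76.1%, below the gene's, for the whole flank. The median log2 of flank change over gene change was -0.42 with tags moved by 75 bases and with merging, -0.34 with at least 20 tags, -0.33 with input subtracted and -0.26 for the whole flank. Of 240 values of named members under alternatives, 227 moved by less than their counting interval and 13 by more. Scaling to the tags outside peaks moved Rbpj from 0.930 to 1.00 and Rps24 from 0.95 to 1.02. With input subtracted, members that had few untreated tags gave larger ratios: at Mrpl39 486 in place of 36.6 and 381 in place of 39.5, at Oasl1 241 in place of 62.8, at Gbp5 146 in place of 28.6 and at Ccl12 45.7 in place of 5.26. At the Mrpl39 and Oasl1 members untreated tags were fewer than input tags (7 and 13, 5 and 7, 2 and 5). There 0.5 stood for the untreated count after subtraction, so these ratios rest on that setting and are not measured. Of 37 named members past the rule of size, 33 stayed past it throughout, and Lyz2, Fos, Klf2 and Usp18 did not. Lyz2 was at 0.660 with 1 tag per position, Usp18 at 1.95, Klf2 at 0.510 and 0.534 with scaling to tags outside peaks, and Fos at 0.525 and 0.506. Why Lyz2, Fos, Klf2 and Usp18 moved was not tested. No paired analysis was possible because each condition had 1 library. With a median of 22 Ser5 tags per member, single members of few tags carry wide intervals.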
